A study of Arabidopsis thaliana with 18 samples.

Results

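Unheated wild-type Arabidopsis thaliana seedlings were compared with unheated seedlings carrying an insertion in PRMT5, over all genes with a mean level of at least 1 TPM in these 6 libraries. TPM is transcript abundance corrected for gene length and scaled to the same total in every library. This rule took 19802 of the 37916 genes in the table and used no difference between genotypes. Each group held 3 libraries at 22 °C: wild type, labelled WT, and the genotype labelled PRMT5 T-insert, called prmt5. All plants grew on an MS medium with sucrose. Whole-seedling RNA was selected with oligo-dT before sequencing. The labels name 1 insertion and give no second allele or complemented line, and they give no seedling age and no hour of harvest. The other 12 libraries of the series came from the same genotypes after 3 days at 37 °C, sampled at once (heat end) or 24 h later (recovery). They served to ask whether a difference seen at 22 °C was present again. They also entered the fit that gave the SE and adjusted p of each gene at 22 °C, through a shared estimate of the spread. Nothing in the labels ties the 3 libraries of a group to separate plants or cultures, so every p-value covers the spread between libraries, which may be technical. The table holds no read counts, so depth is unknown.

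PRMT5 is the main enzyme that places symmetric dimethyl groups on arginine. Its known targets include the Sm and LSm proteins, which form the rings of the spliceosomal small nuclear RNPs, and GRP7, a glycine-rich protein that binds RNA. In Arabidopsis, prmt5 mutants are known for faulty splicing, a slowed circadian clock and late flowering. Transcript levels without heat show the state of the mutant from which any heat response starts.

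PRMT5 itself (AT4G31120) stood at 27.4, 26.3 and 25.3 TPM in the WT libraries and at 2.32, 3.35 and 4.51 TPM in the prmt5 libraries. The groups did not overlap, and the mutant mean was 12.9% of the WT mean. The mean difference was -22.9 TPM, with a two-sided exact permutation p = 0.1, the smallest that 3 libraries against 3 can give. The difference was also present in the libraries of heat end (log2 change -2.64 ± 0.17, SE; adjusted p = 5.6e-09) and recovery (-3.09 ± 0.17; adjusted p = 4.3e-09). Of 34 tested genes among the 25 on each side of PRMT5, 4 passed the test described next (11.8%, against 17.2% of all genes).

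Correlations of log2(TPM + 1) between libraries were 0.961 to 0.981 within a genotype and 0.953 to 0.962 between genotypes. WT library 3 had the lowest levels of 2 sets of root markers. The summed level of 5 root hair markers was 62.3, 52.8 and 10.2 TPM in the WT libraries and 54.6, 22.9 and 40.9 TPM in the prmt5 libraries. The summed level of 4 endodermis markers was 52.4, 36.6 and 5.52 TPM in WT and 30.5, 20.1 and 34.5 TPM in prmt5. Stomatal lineage markers (7 genes) summed to 86.0 to 121 TPM in WT and 83.3 to 125 TPM in prmt5. Seed storage markers (7 genes) summed to at most 1.07 TPM and floral organ markers (5 genes) to at most 11 TPM in any library. With WT library 3 kept, 0 of the 5 root hair, 4 endodermis, 7 stomatal, 1 floral and 1 meristem markers that were tested passed. The seed markers were too low to test. Without WT library 3, the median log2 change of the root hair markers moved from 0.18 to -0.52, and 0 passed. That of the endodermis markers moved from 0.11 to -0.56, and 1 passed, lower in prmt5. In whole seedlings, fewer cells of a type and less RNA per cell cannot be told apart. Among the genes named with values, 22 lost their call without WT library 3 (EXPA11, RDM16, MYC2, GEMIN2, HEMA1, HSP101, MGD3, PDF1.3, TOE1, PYL6, NUC2, LUX, LHCA4, CDF3, BCAT3, LNK2, BHLH39, APR1, FCA, CYCB1;1, JAZ12 and AOS), and FRO2 and FIT gained one.

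In prmt5, 810 genes were higher (4.09% of those tested) and 2599 were lower (13.1%), at an adjusted p under 0.05 from limma on log2(TPM + 1). Of these, 131 were more than 2-fold higher and 297 more than 2-fold lower. A gene with a mean under 1 TPM in 1 genotype passed the filter only through the other, so its direction was set in advance. Among others, this holds for AT3G01345, AT1G75945, PIF4, NAC103, BHLH101 and AT5G53230, which passed through prmt5. It also holds for LHY, RVE8, FT, TSF, CIB1 and PDF1.2c, which passed through WT. The balance depended on scaling. Over all genes the median log2 change was -0.12 on the TPM scale. Median-ratio scaling moved it by 0.14, to 0.01, and then 2042 genes were higher and 1680 lower, so that 54.9% of calls were higher instead of 23.8%. Under that scaling, 810 of the 810 higher genes were still higher and 1674 of the 2599 lower genes were still lower. Log2 changes below are on the TPM scale and are to be read against the median of -0.12. When the fit held the 6 libraries alone, 386 genes were higher and 1112 lower, and the counts also moved by more than 1.5 times without WT library 1 (465 higher, 1338 lower), WT library 2 (493 and 1623) or prmt5 library 2 (430 and 1423). Without WT library 3 they were 679 and 2925. The balance also shifted with prmt5 libraries 1 and 3. Without prmt5 library 1, 1169 genes were higher and 1737 lower, and without prmt5 library 3, 641 were higher and 3591 lower. Of the 139 called genes named with values, 90 passed with any 1 of the 6 libraries left out, 49 lost the call with at least 1 of them left out, and 0 changed sign. Over all genes tested, the libraries of WT and prmt5 did not overlap in 33.1%, with prmt5 above WT in 9.02% and below it in 24.1%.

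The genes farthest from WT were a small mixed set, plotted by library among nuclear protein-coding genes with a symbol. Cold-regulated genes led the higher side. COR15A (AT2G42540), a chloroplast protein that protects membranes during freezing, stood at 8.94, 35 and 11.6 TPM in WT and at 297, 92.7 and 78.7 TPM in prmt5. The groups did not overlap, and prmt5 library 1 was far above the other libraries. The log2 change was 2.98 ± 0.50 (SE; adjusted p = 0.0011). Its neighbour COR15B (AT2G42530) stood at 6.20, 17.5 and 7.67 TPM against 143, 68.2 and 49.6 TPM (2.92 ± 0.35; adjusted p = 8.5e-05). COR6.6 (AT5G15970), another cold-induced gene, stood at 105, 142 and 82.0 TPM against 1000, 632 and 580 TPM (2.73 ± 0.26; adjusted p = 9.9e-06). In both of these genes every prmt5 library was also above every WT library.

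**Figure D1:**
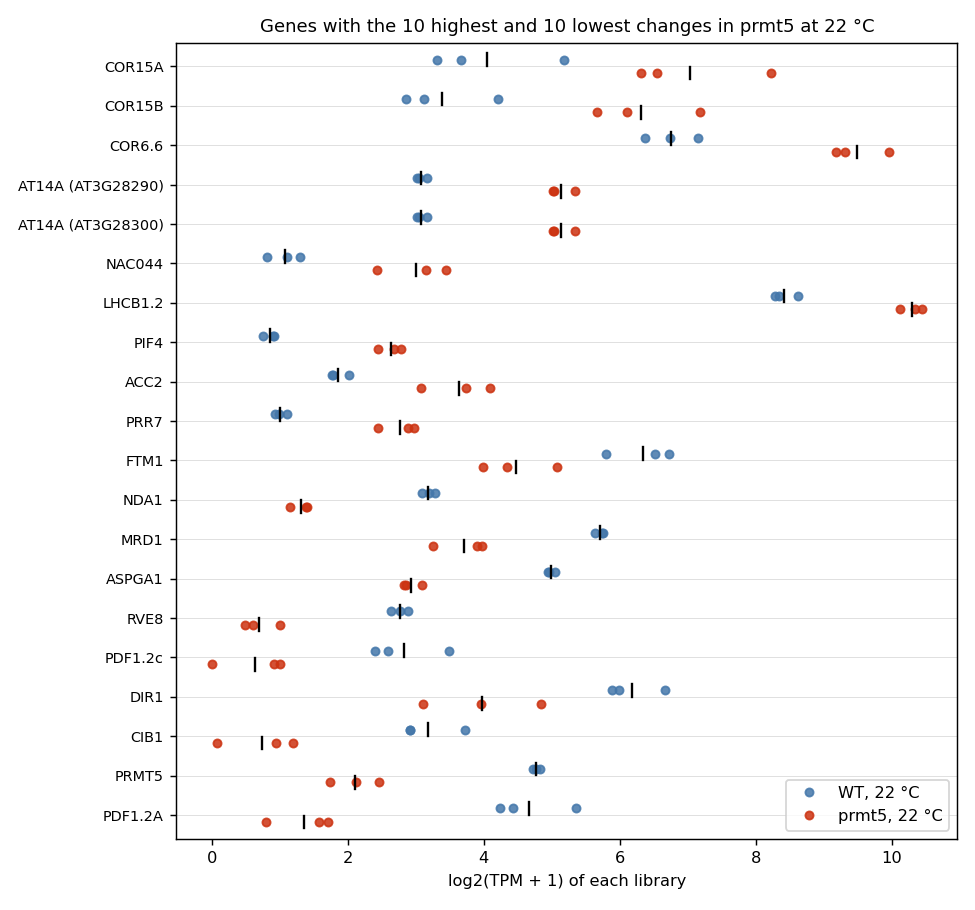
Level of each library, as log2(TPM + 1), for the 10 highest and 10 lowest log2 changes that passed the naming rule; dots are single libraries (3 per genotype) and black ticks their means. WT and prmt5 libraries do not overlap in any gene shown, which the rule required; PDF1.2A has the lowest change (-3.31) and COR15A the highest (2.98).

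Of the other higher genes, the DNA-damage transcription factor NAC044 rose from 1.12 ± 0.36 TPM (SD, n = 3) to 7.35 ± 2.75 TPM. PIF4, a basic helix-loop-helix factor that drives elongation growth in warmth and shade, was at 0.68, 0.88 and 0.87 TPM in WT and at 5.41, 4.44 and 5.86 TPM in prmt5 (1.78 ± 0.23; adjusted p = 0.00015). The clock gene PRR7 rose to a like extent (1.76 ± 0.13; adjusted p = 1.2e-06). ACC2, a plastid acetyl-CoA carboxylase, rose from 2.63 ± 0.36 to 11.9 ± 4.32 TPM. AT14A, an integrin-like protein, is annotated at 2 loci (AT3G28290 and AT3G28300) whose values were identical in every library, so the reads of these copies were not told apart and the change (2.05 ± 0.27) counts once.

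On the lower side, the plant defensin PDF1.2A (AT5G44420) stood at 17.8, 20.4 and 39.9 TPM in WT and at 2.25, 0.73 and 1.98 TPM in prmt5 (-3.31 ± 0.26; adjusted p = 1.7e-06). CIB1, a partner of the blue-light receptor cryptochrome 2 that promotes flowering, fell from 8.41 ± 3.26 to 0.75 ± 0.63 TPM (-2.45 ± 0.43). DIR1, a lipid-transfer protein needed for long-distance immune signalling, fell from 73.6 ± 23.0 to 16.6 ± 10.1 TPM (-2.21 ± 0.49). ASPGA1, an asparaginase, fell from 30.7 ± 1.27 to 6.61 ± 0.78 TPM, and NDA1, a mitochondrial alternative NAD(P)H dehydrogenase, from 8.10 ± 0.61 to 1.49 ± 0.24 TPM. FTM1, a stearoyl-ACP desaturase family member, fell by 1.87 on the log2 scale, and MRD1, known only as a gene that responds in a methionine over-accumulating mutant, fell by 2.00.

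Some of the largest changes were in genes without a symbol, named here after their values were seen. AT3G01345, annotated as an expressed protein, was at 0.15, 0.50 and 0.15 TPM in WT and at 227, 242 and 205 TPM in prmt5 (7.49 ± 0.15; adjusted p = 4.7e-14). All WT libraries were below 1 TPM, and no prmt5 library was below 205 TPM. Its difference was smaller but present at heat end (1.05 ± 0.15) and recovery (2.5 ± 0.15), where WT itself reached 29.4 and 17.5 TPM. AT1G75945, a hypothetical protein, rose from 0.74 ± 0.87 to 41.5 ± 3.87 TPM, and the non-coding RNA AT4G04223 from 6.03 ± 1.23 to 70.5 ± 11.6 TPM. AT1G21770, an acyl-CoA N-acyltransferase family gene, went the other way, at 152, 158 and 146 TPM in WT and at 14.8, 13.3 and 14.0 TPM in prmt5 (-3.35 ± 0.12; adjusted p = 1.6e-10), and was lower again at heat end (-2.58) and recovery (-2.58).

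The gene lists described from here on were chosen with earlier results of these data known, and the plot of list shares gives them side by side. Their counts are to be read against 4.09% higher and 13.1% lower over all genes tested (10.3% and 8.48% with median-ratio scaling). Among the 9 arginine methyltransferase genes, 1 rose and 2 fell, against 3 and 2 with median-ratio scaling. PRMT1B, a type I enzyme that places asymmetric marks, rose from 53.8 ± 2.28 to 68.0 ± 8.05 TPM (0.33 ± 0.09; adjusted p = 0.018), and PRMT7 fell from 4.18 ± 0.26 to 2.38 ± 0.67 TPM (-0.63 ± 0.15; adjusted p = 0.011). The PRMT1B call was lost without WT library 1, WT library 2 or prmt5 library 2 (adjusted p up to 0.089).

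Genes for the known protein targets of PRMT5 that passed the test were higher in the mutant. Of 24 Sm and LSm genes 4 rose, 0 fell and 20 did not pass, with a median log2 change of 0.16. The clearest was SMD1A, a subunit of the Sm ring, at 36.2, 37.6 and 40.7 TPM in WT and 54.1, 63.8 and 65.5 TPM in prmt5 (0.66 ± 0.08; adjusted p = 6.9e-05). SMD3A, LSM3A and SMD2B rose by 0.33, 0.31 and 0.29, and each of these calls was lost without prmt5 library 2 (adjusted p 0.069 to 0.15), that of SMD2B also without WT library 1, WT library 2 or prmt5 library 3. With median-ratio scaling 11 of the 24 rose and 0 fell. GRP7 (AT2G21660), which binds RNA and takes part in clock output and flowering, was at 2912, 2588 and 2902 TPM in WT and at 5522, 6964 and 6966 TPM in prmt5. All 3 prmt5 libraries were above all WT libraries, and the log2 change was 1.20 ± 0.14 (adjusted p = 8.1e-05). Its paralog GRP8 rose from 521 ± 90.4 to 789 ± 40.3 TPM (0.61 ± 0.11; adjusted p = 0.0022). GEMIN2, an assembly factor of the small nuclear RNPs, rose by 0.35, by 0.22 without prmt5 library 3, and the call was lost without any 1 of 5 libraries (adjusted p up to 0.12).

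Splicing factor genes were mostly not called. Of 20 SR protein genes, which guide splice site choice, 1 rose and 3 fell, near the shares over all genes (4.09% and 13.1%). With median-ratio scaling 4 rose and 3 fell. SCL33 fell from 32.0 ± 3.03 to 17.1 ± 5.02 TPM (-0.90 ± 0.18; adjusted p = 0.0042), SR30 from 45.5 ± 1.53 to 28.5 ± 5.16 TPM (-0.67 ± 0.11; adjusted p = 0.00077) and RSZ33 by 0.50, a change of -0.31 without prmt5 library 1 and a call lost without WT library 1 (adjusted p = 0.052). RSZ22A rose by 0.54. Of 18 core spliceosome genes 3 rose (STA1 by 0.58, RDM16 by 0.35 and U1A by 0.34) and 0 fell, and each of the 3 calls was lost without prmt5 library 2 (adjusted p 0.059 to 0.10), those of RDM16 and U1A also without WT library 2, and that of RDM16 without WT library 3 or prmt5 library 3. One TPM value per gene does not separate spliced from unspliced transcripts, so splicing itself was not measured.

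**Figure D2:**
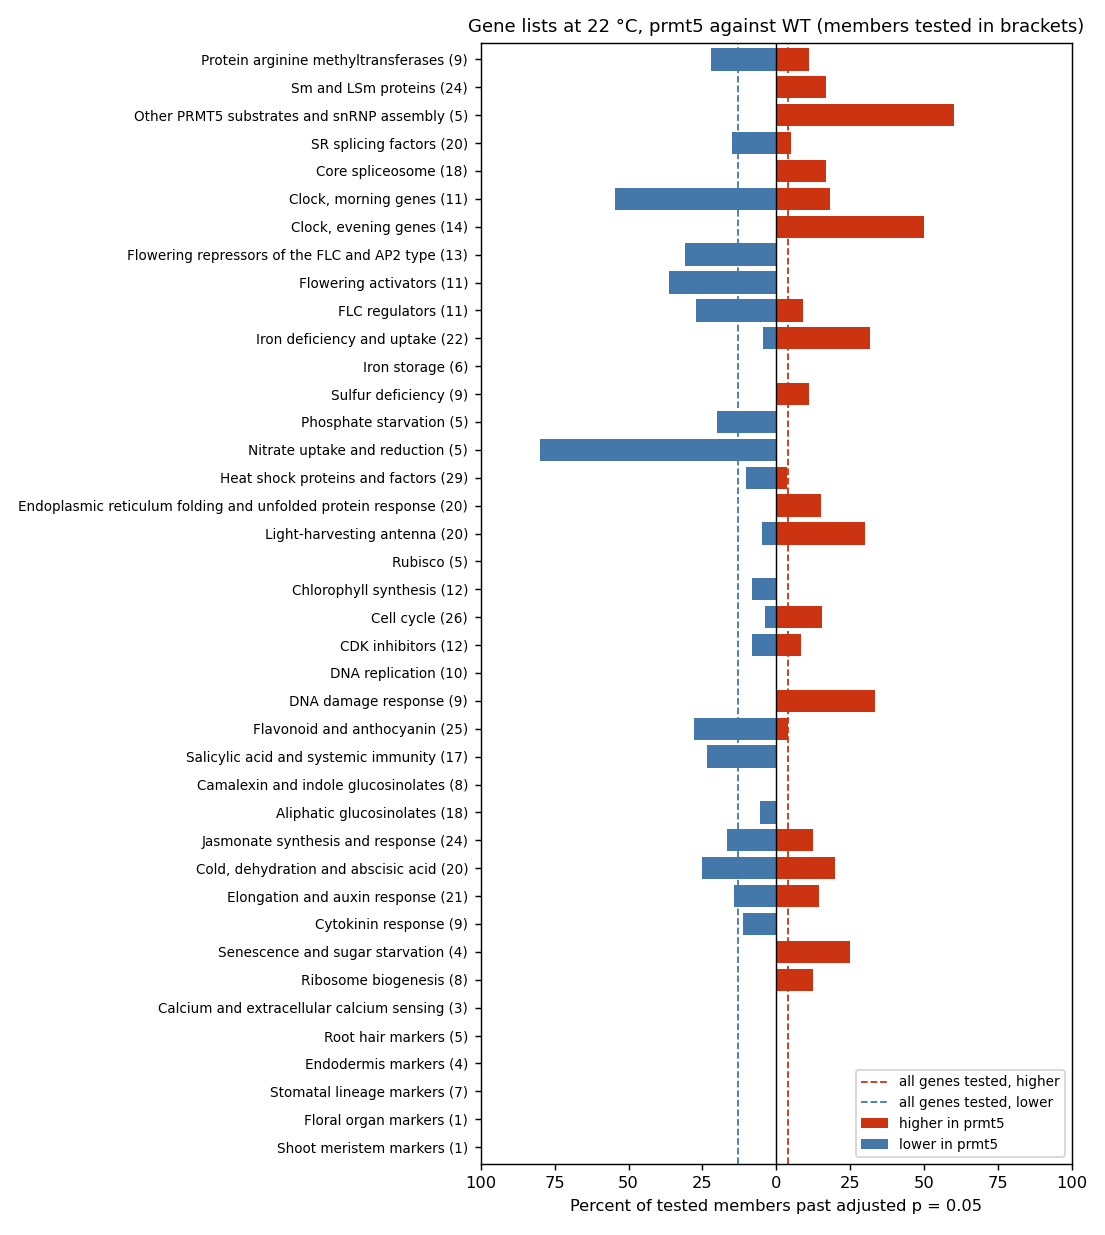
Percent of the tested members of each gene list that were higher (red, to the right) or lower (blue, to the left) in prmt5 at 22 °C, with dashed lines at the shares over all genes tested (4.09% higher, 13.1% lower). Evening clock genes, iron deficiency genes and antenna genes lie mostly on the higher side, and nitrate, flowering and morning clock genes mostly on the lower side.

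The number of introns of a gene went with the direction of its change. Among 18678 protein-coding genes, 10.5% of the 2543 genes without introns were higher in prmt5 and 4.52% were lower. With 3 to 4 introns these shares were 3.56% and 12.2%, and with 8 to 12 introns 1.22% and 21.4%. In the class of 13 or more introns, 0.852% were higher and 21.4% lower. Without WT library 3, more of the genes without introns were lower (9.91%) than higher (8.73%), and of genes with 8 or more introns 18.6% were lower and 0.924% higher. The order held within the longest of 3 length classes (0 introns 11.8% higher and 2.99% lower, 8 or more introns 0.937% and 20.6%) and within the shortest (9.41% and 5.71%, against 1.54% and 26.9%). Median-ratio scaling raised the level of the curve for higher genes and kept the order, with 19.9% of genes without introns higher and 2.6% lower, against 4.35% and 14.4% of genes with 8 or more introns.

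The size of this pattern differed between libraries of the mutant. For each library, the median deviation from the WT mean was taken over genes with 8 or more introns, and that over genes without introns was subtracted. On the log2 scale this gap was 0.01, -0.07 and 0.05 in the WT libraries and -0.42, -0.23 and -0.07 in the prmt5 libraries. Library 1 of prmt5 had the widest gap, and library 3 lay at the edge of the WT range. The same difference between the longest and the shortest length class was -0.21, -0.08 and 0.05 in the prmt5 libraries and -0.02 to 0.01 in WT. This length gap lay below WT in prmt5 libraries 1 and 2 and above it in library 3. The calls within length classes are given above, but the part of length in the gap of single libraries was not tested. Without prmt5 library 1, 11.9% of genes with 8 or more introns were lower in place of 21.4%, and without prmt5 library 3, 37.2%. Over the 6 fits that each left out 1 library, 5.15% to 11.4% of genes without introns were higher and 2.01% to 9.91% lower, against 0.554% to 2.69% and 10.2% to 37.2% of genes with 8 or more introns. At heat end the intron gap was -0.20, -0.20 and -0.09 in prmt5 and -0.02 to 0.01 in WT. The length gap there was -0.15, -0.28 and -0.22 in prmt5 and -0.05 to 0.05 in WT. At recovery the intron gap was 0.09, -0.08 and -0.14 in prmt5, which overlapped the WT range of -0.03 to 0.04. The length gap there was 0.11, 0.06 and -0.06 in prmt5 and -0.03 to 0.02 in WT. The part of length in these gaps was not tested.

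**Figure D3:**
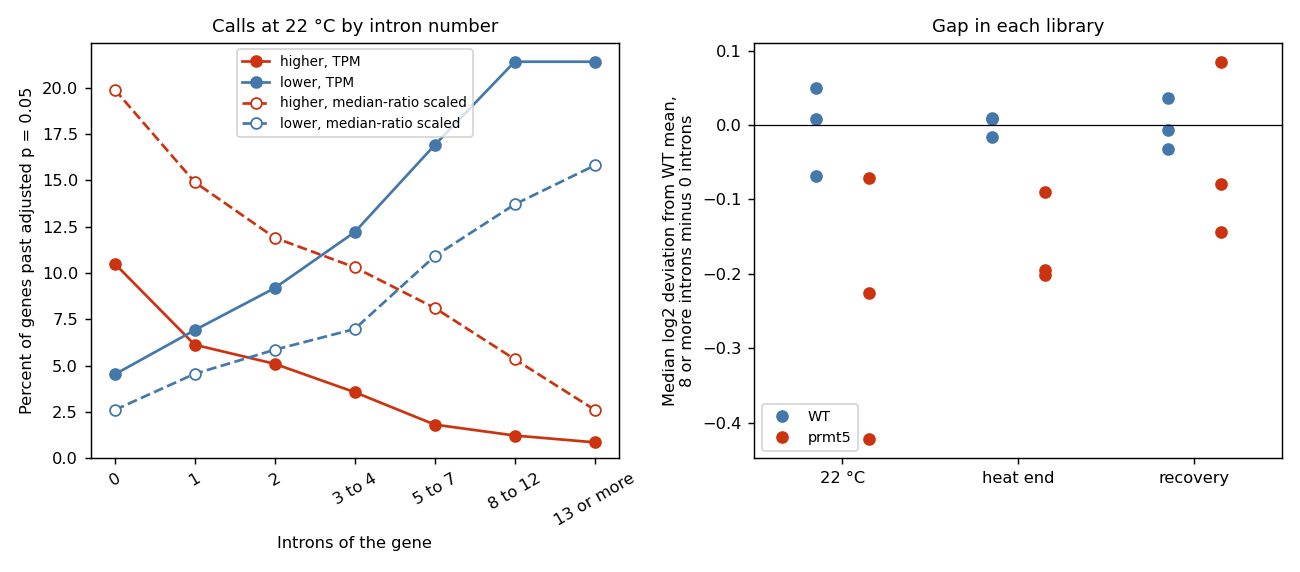
Left, percent of genes past an adjusted p of 0.05 at 22 °C in 7 classes of intron number, for TPM (filled) and median-ratio scaled values (open). Right, the median log2 deviation from the WT mean of genes with 8 or more introns minus that of genes without introns, 1 dot per library; at 22 °C prmt5 library 1 is at -0.42 and prmt5 library 3 at -0.07, next to the lowest WT library (-0.07).

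Most morning clock genes that passed the test were lower in the mutant, and the evening genes that passed were higher. Of 11 tested morning genes 6 fell and 2 rose (median -0.54), and of 14 tested evening genes 7 rose and 0 fell (median 0.29). LHY, a MYB factor at the core of the morning loop that represses evening genes, was at 3.31, 3.69 and 2.78 TPM in WT and at 0.39, 0.30 and 0.35 TPM in prmt5 (-1.66 ± 0.14; adjusted p = 3.5e-06). RVE8, a related MYB factor that activates evening genes, was at 5.82, 5.21 and 6.40 TPM against 0.52, 0.40 and 1.00 TPM (-2.07 ± 0.19; adjusted p = 6.5e-06). RVE1, which links the clock to auxin, fell from 5.13 ± 0.29 to 1.54 ± 0.25 TPM, and RVE4, RVE2 and LNK2 fell by 0.94, 0.82 and 0.54, the LNK2 call being lost without any 1 of the 6 libraries (adjusted p up to 0.12) or with median-ratio scaling. In each of LHY, RVE8 and RVE1 the highest prmt5 library was below the lowest WT library. The exceptions were PRR7, a repressor of LHY expression that peaks after dawn, at 1.14, 0.90 and 0.99 TPM in WT and 4.46, 6.42 and 6.82 TPM in prmt5, and the coactivator LNK1, which rose by 0.77. CCA1, PRR9, LNK3 and LNK4 were under 1 TPM on average and were not tested.

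On the evening side GI, a clock and photoperiod protein, was at 2.95, 2.76 and 1.44 TPM in WT and at 6.06, 6.48 and 8.62 TPM in prmt5 (1.27 ± 0.16; adjusted p = 9.9e-05). PRR3 rose from 15.5 ± 1.68 to 27.3 ± 2.03 TPM, FKF1, a blue-light receptor that acts with GI, from 8.75 ± 0.51 to 14.7 ± 0.93 TPM, and BOA, a paralog of the evening complex member LUX, from 6.12 ± 0.34 to 9.63 ± 1.06 TPM. CDF3, ELF4 and LUX rose by 0.49, 0.48 and 0.33, and the calls of CDF3 and LUX were lost without any 1 of 5 and of 6 libraries (adjusted p up to 0.12 and 0.10). TOC1, the evening counterpart of LHY, was at 38.5 ± 1.4 TPM in WT and 45.9 ± 5.81 TPM in prmt5 and did not pass (0.24 ± 0.12; adjusted p = 0.19), but passed after median-ratio scaling (0.39; adjusted p = 0.0093). Without WT library 3, 5 of the evening genes rose and 5 of the morning genes fell. Clock genes differ with the hour of sampling. The labels do not give it, so a difference in the clock and a difference in harvest time between groups cannot be told apart. The same limit holds for any other gene named here, in whichever list, whose level changes with the hour.

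Many evening genes carry the evening element, AAATATCT, to which LHY and the RVE proteins bind. In the 300 bases before the annotated start it was present on either strand in 5.83% of 18677 promoters, in 9.15% of those of higher genes, in 5.44% of those of lower genes, in 5 of 14 evening clock promoters (35.7%), in 2 of 11 morning clock promoters and in 4 of the 20 of the cold list described further on. The related CCA1-binding site, AAAAATCT, was present in 8.01% of all promoters, 7.16% of those of higher genes, 8.64% of those of lower genes and 1 of the 14 evening promoters. The G-box, CACGTG, was present in 7.92%, 9.81% and 7.28%, and in 3 of the 14. The promoters of GRP7 and GRP8 hold 3 copies and 1 copy of the evening element. The 3 sequences that follow, of genes higher in prmt5, show how the element is placed (RefSeq TAIR10.1, each on the strand of its gene, from 300 bases before the start to the last base before it; capitals mark the element on either strand).
GRP7 (chr2:9266558-9266857, minus strand): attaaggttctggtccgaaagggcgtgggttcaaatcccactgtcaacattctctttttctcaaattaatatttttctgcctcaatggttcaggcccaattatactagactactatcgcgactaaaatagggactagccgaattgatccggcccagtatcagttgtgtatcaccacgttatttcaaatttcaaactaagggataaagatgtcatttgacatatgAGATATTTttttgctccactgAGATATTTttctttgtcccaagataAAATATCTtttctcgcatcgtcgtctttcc
GRP8 (chr4:18275217-18275516, minus strand): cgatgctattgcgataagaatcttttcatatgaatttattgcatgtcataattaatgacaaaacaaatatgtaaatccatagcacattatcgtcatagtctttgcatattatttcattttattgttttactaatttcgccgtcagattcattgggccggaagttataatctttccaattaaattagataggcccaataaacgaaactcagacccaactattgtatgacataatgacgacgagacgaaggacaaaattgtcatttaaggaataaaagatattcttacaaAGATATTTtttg
BOA (chr5:24003588-24003887, plus strand): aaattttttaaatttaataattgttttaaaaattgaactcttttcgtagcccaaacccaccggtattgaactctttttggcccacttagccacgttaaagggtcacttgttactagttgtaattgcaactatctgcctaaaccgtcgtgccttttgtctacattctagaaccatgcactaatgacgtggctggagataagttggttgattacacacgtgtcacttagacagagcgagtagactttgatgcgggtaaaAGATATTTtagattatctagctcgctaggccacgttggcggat
The copies begin 76, 55 and 30 bases before the start of GRP7 and 12 bases before that of GRP8. In BOA the single copy lies 43 bases before the start. GI and PRR3, which rose the most on the evening side, hold no copy in this window.

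**Figure D4:**
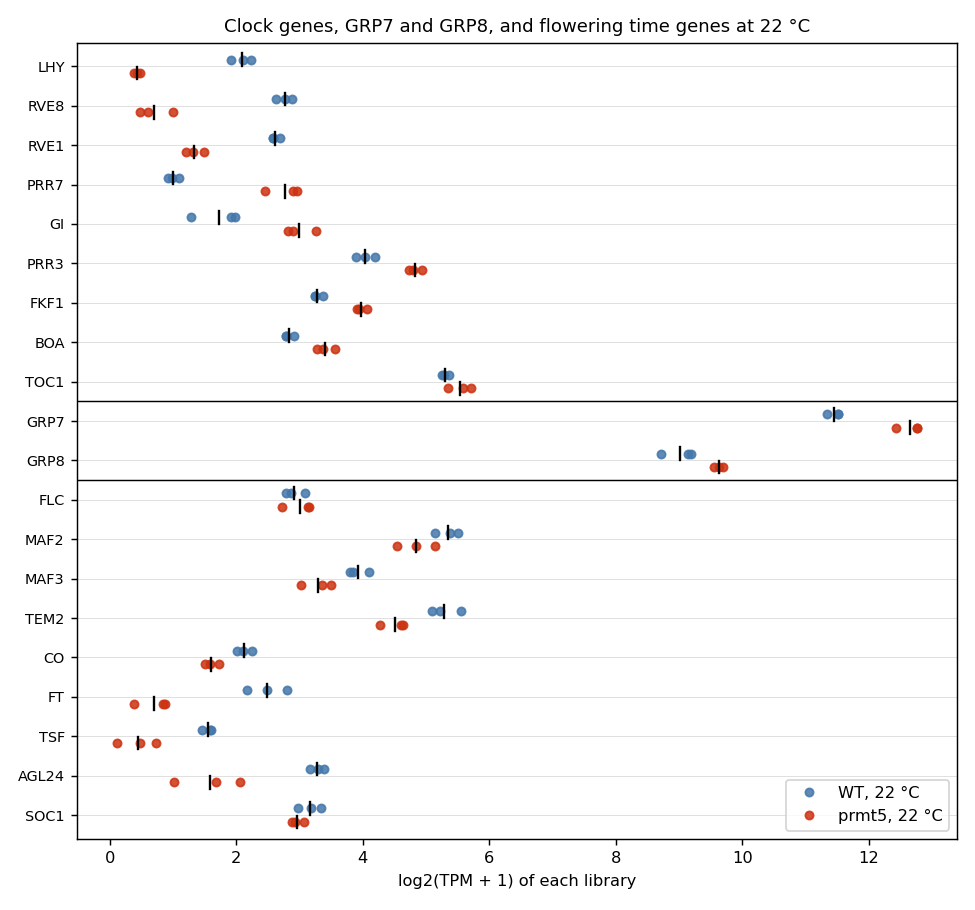
Level of each library, as log2(TPM + 1), for clock genes (top block), GRP7 and GRP8 (middle) and flowering time genes (bottom); dots are single libraries at 22 °C, 3 per genotype, and black ticks their means. LHY, RVE8, RVE1, FT, TSF and AGL24 are lower in every prmt5 library, PRR7, GI and GRP7 are higher in every prmt5 library, and the genotypes overlap for FLC.

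Genes of the flowering activator list that passed the test were lower in the mutant, while the repressor FLC was not called. GI, a photoperiod protein, and GRP7, which takes part in flowering, are in other lists and rose. Of 11 tested activators 4 fell and 0 rose, where 13.1% of all genes fell and 4.09% rose. FT, the mobile flowering signal made in leaves, was at 4.59, 5.99 and 3.51 TPM in WT and at 0.79, 0.83 and 0.31 TPM in prmt5 (-1.79 ± 0.21; adjusted p = 7.3e-05). TSF, its close paralog, was at 2.04, 1.76 and 2.00 TPM against 0.09, 0.66 and 0.40 TPM (-1.1 ± 0.20; adjusted p = 0.0019). FT and TSF were below 1 TPM in every prmt5 library and passed the filter only through WT, so their direction was set in advance. AGL24, a MADS-box activator, fell from 8.73 ± 0.75 to 2.13 ± 1.08 TPM (-1.69 ± 0.23), and CO, the photoperiod factor upstream of FT, from 3.37 ± 0.38 to 2.05 ± 0.25 TPM (-0.52 ± 0.13). In these 4 genes the genotypes did not overlap, and the CO call was lost without prmt5 library 2 (adjusted p = 0.052). SOC1, an integrator of flowering signals, was at 8.03 ± 1.12 and 6.78 ± 0.54 TPM (-0.21 ± 0.17; adjusted p = 0.41).

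FLC (AT5G10140), the MADS-box repressor of FT and SOC1, was at 6.31, 7.52 and 5.87 TPM in WT and at 5.59, 7.83 and 7.88 TPM in prmt5. The groups overlapped (0.09 ± 0.17; adjusted p = 0.74), and at heat end and recovery the changes in FLC were -0.88 and -1.14. Of 13 tested repressors of the FLC and AP2 type 0 rose and 4 fell: TEM2 by 0.78, MAF3 by 0.63, MAF2 by 0.50 and TOE1 by 0.43. The TOE1 call was lost without any 1 of 5 libraries or with median-ratio scaling (adjusted p up to 0.14), and the MAF2 call without WT library 1 or prmt5 library 1 (adjusted p = 0.052 in both). Of 11 tested regulators of FLC 1 rose (FRL1, 0.44) and 3 fell, among them the activator FRI, from 5.81 ± 0.11 to 3.58 ± 0.60 TPM, and FPA, an RNA-binding protein of the autonomous pathway, from 15.6 ± 0.96 to 11 ± 1.06 TPM. FCA of the same pathway fell by 0.52, but the change was -0.29 without prmt5 library 1 (adjusted p = 0.18), and its call was lost without any 1 of 5 libraries.

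The cold, dehydration and abscisic acid list had no common direction. Of 20 tested genes 4 rose and 5 fell. Beside the COR genes above, RD29A rose by 0.95. RD22, a dehydration gene of the abscisic acid pathway, fell from 189 ± 8.71 to 77.0 ± 15.2 TPM (-1.30 ± 0.26; adjusted p = 0.0038). The abscisic acid receptors PYL6 and PYL5, the factor RD26 and the phosphatase HAB1 fell by 1.07, 0.80, 0.75 and 0.64, and the PYL6 call was lost without WT library 2, WT library 3 or prmt5 library 2 (adjusted p up to 0.10). KIN1, the tandem copy of COR6.6, was at 37.3, 45.2 and 16 TPM in WT and at 33.3, 24.6 and 21.2 TPM in prmt5, where the groups overlapped (-0.21 ± 0.36; adjusted p = 0.73). KIN1 and COR6.6 are near-identical, so the share of reads given to each is uncertain. COR47, ERD10, RAB18 and ABI5 did not pass (0.09 to 0.32; COR47 and ERD10 were below 0 without WT library 3), and CBF1, CBF2 and CBF3, the factors that switch on COR genes in the cold, were under 1 TPM on average and were not tested.

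CBF factors bind the CRT/DRE core, CCGAC, which is present on either strand in 14.9% of all promoters of this length, in 19.8% of those of higher genes and in 14.2% of those of lower genes. It is in 4 of the 20 promoters of this list, and the 3 of them that belong to higher genes are shown (same source and layout; capitals mark the core on either strand). COR6.6 holds none in this window.
COR15A (chr2:17712331-17712630, minus strand): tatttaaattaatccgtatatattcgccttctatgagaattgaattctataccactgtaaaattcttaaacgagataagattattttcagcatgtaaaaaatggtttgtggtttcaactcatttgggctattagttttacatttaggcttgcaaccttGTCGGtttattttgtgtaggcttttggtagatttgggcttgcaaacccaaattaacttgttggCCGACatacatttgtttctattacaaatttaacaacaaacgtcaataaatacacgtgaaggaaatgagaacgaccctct
COR15B (chr2:17710434-17710733, minus strand): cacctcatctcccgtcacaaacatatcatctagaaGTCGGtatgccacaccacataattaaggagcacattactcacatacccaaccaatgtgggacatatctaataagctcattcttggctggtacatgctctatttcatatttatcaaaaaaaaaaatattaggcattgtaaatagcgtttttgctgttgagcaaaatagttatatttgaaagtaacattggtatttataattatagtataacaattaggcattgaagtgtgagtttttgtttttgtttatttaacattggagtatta
RD29A (chr5:21240417-21240716, plus strand): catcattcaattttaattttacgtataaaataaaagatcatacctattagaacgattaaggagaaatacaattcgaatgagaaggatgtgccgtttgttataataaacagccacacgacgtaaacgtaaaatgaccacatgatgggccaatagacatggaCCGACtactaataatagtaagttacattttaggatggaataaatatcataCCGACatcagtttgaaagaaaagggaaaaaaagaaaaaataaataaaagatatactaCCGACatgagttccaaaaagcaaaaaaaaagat
The cores begin 142 and 79 bases before the start of COR15A, 265 bases before that of COR15B, and 140, 90 and 33 bases before that of RD29A.

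Antenna genes, which encode the chlorophyll-binding proteins of both photosystems, were mostly higher in the mutant among those that passed. Of 20 tested, 6 rose and 1 fell (5 and 1 without WT library 3), and 17 had a positive log2 change (median 0.82). LHCB1.2 was at 325, 312 and 391 TPM in WT and at 1392, 1114 and 1297 TPM in prmt5 (1.89 ± 0.37; adjusted p = 0.0033). LHCB1.5 was at 655, 749 and 831 TPM against 2988, 2082 and 2513 TPM (1.75 ± 0.46; adjusted p = 0.017), and LHCA1 at 472, 539 and 564 TPM against 1633, 1261 and 1322 TPM (1.41 ± 0.35; adjusted p = 0.014). In all 3 genes the groups did not overlap. LHCA4, LHCA3 and LHCB2.3 rose by 1.26, 1.17 and 1.07, whereas LHCB4.3, a minor antenna form, fell from 131 ± 16.8 to 52.6 ± 13.2 TPM (-1.33 ± 0.23). The LHCA4 call was lost without any 1 of the 6 libraries (adjusted p up to 0.13), and that of LHCA3 without any 1 of 4 (up to 0.072). The LHCB1 genes are near-identical, so their single values are uncertain. Without WT library 1 the calls of LHCB1.5 and LHCA1 were lost (adjusted p = 0.065 and 0.055), and that of LHCB1.5 also without prmt5 library 1 (adjusted p = 0.055). Of 5 genes of Rubisco and its activase 0 were called (median -0.41). Of 12 tested chlorophyll synthesis genes 1 fell, HEMA1 (-0.60), with an adjusted p of 0.11 after median-ratio scaling and up to 0.067 without WT library 2, WT library 3 or prmt5 library 3. At heat end 0 antenna genes were higher in prmt5 and 18 were lower, and at recovery 0 and 16.

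In the iron deficiency list 7 of 22 tested genes rose and 1 fell (median 0.28). The risen genes include the 4 basic helix-loop-helix factors of group Ib, which switch on iron uptake. BHLH100 was at 2.68, 2.55 and 2.90 TPM in WT and at 14.0, 4.68 and 20.2 TPM in prmt5 (1.72 ± 0.34; adjusted p = 0.0037). BHLH101 was at 0.94, 0.38 and 0.50 TPM against 3.34, 2.36 and 6.49 TPM (1.59 ± 0.31; adjusted p = 0.0034), BHLH38 rose from 3.13 ± 1.32 to 8.10 ± 2.93 TPM, and BHLH39 by 1.01, a call lost without any 1 of 4 libraries (adjusted p up to 0.11). The prmt5 libraries lay above WT in BHLH100, BHLH101 and BHLH38, with prmt5 library 2 the lowest of the mutant in each. The iron-signalling peptides IMA1 and IMA2 rose by 1.08 and 1.06, IMA1 from 26.2 ± 2.72 to 57.0 ± 9.78 TPM, and the phloem iron transporter OPT3 by 0.32, a call lost without any 1 of 4 libraries (adjusted p up to 0.10). The uptake genes themselves did not pass: the root iron transporter IRT1 changed by 0.74, the reductase FRO2 by -0.12 and the factor FIT by -0.36. BTSL2, a ligase that restrains iron uptake, fell by 0.80. Root genes were low in WT library 3, and without it 6 iron genes rose and 5 fell, FRO2 (-0.87) and FIT (-0.93) among the latter, and IRT1 was at -0.47. Of 6 iron storage genes 0 were called.

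Of 5 genes of nitrate uptake and reduction 4 fell and 0 rose (median -0.62). The nitrate reductase NIA1 was at 142, 138 and 72.3 TPM in WT and at 58.0, 54.0 and 65.9 TPM in prmt5 (-0.92 ± 0.23; adjusted p = 0.015), and the transporter NRT1.1 at 195, 189 and 126 TPM against 110, 85.8 and 109 TPM (-0.72 ± 0.17; adjusted p = 0.011). WT library 3 was the nearest to the mutant in both genes, and without it the changes were -1.23 and -0.92. NIA2 and the nitrite reductase NIR1 fell by 0.62 and 0.50. Each of the 4 calls was lost without prmt5 library 2 (adjusted p 0.052 to 0.092), those of NIA1, NRT1.1 and NIA2 also without WT library 1 or 2 (adjusted p up to 0.08), and those of NIA2 and NIR1 also with median-ratio scaling (adjusted p = 0.082 and 0.11). Of 9 sulfur deficiency genes 1 passed, APR1 (0.66), a call lost without any 1 of the 6 libraries (adjusted p up to 0.14). Of 5 phosphate starvation genes 1 fell, MGD3 (-0.80), whose libraries overlapped and whose call was lost without WT library 1, WT library 3 or prmt5 library 2 (adjusted p up to 0.15).

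Phenylpropanoid and flavonoid genes that passed were mostly lower. Of 25 tested, 7 fell and 1 rose (median -0.36). PAP2, a MYB activator of anthocyanin synthesis, was at 15, 13.5 and 25.2 TPM in WT and at 6.78, 4.46 and 3.77 TPM in prmt5 (-1.64 ± 0.26; adjusted p = 0.00077). HY5, the light-signalling bZIP factor, fell from 34.8 ± 3.45 to 19.4 ± 2.16 TPM (-0.81 ± 0.14; adjusted p = 0.0012). The enzymes TT7, F3H, FLS1, PAL2 and PAL1 fell by 0.72, 0.65, 0.63, 0.60 and 0.55, and the TT7 call was lost without WT library 1 or 2 (adjusted p = 0.084 and 0.074), that of F3H without WT library 1 or prmt5 library 2 (up to 0.08) or with median-ratio scaling (0.07), and that of FLS1 without WT library 1 (0.064). The anthocyanin malonyltransferase 5MAT rose by 1.03, a call lost without any 1 of 4 libraries (adjusted p up to 0.14). PAP1, the paralog of PAP2, did not pass (0.99), nor did the late enzymes DFR (0.41) and LDOX (0.30).

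Immune genes that passed on the TPM scale were lower. Of 17 tested genes of salicylic acid signalling 4 fell, where 13.1% of all genes did, and 0 rose: the factor WRKY18 from 13.2 ± 1.82 to 7.15 ± 0.37 TPM, the regulator PAD4 from 10.2 ± 1.01 to 5.80 ± 1.17 TPM, the receptor SNC1 by 0.41 and the synthesis enzyme ICS1 by 0.37. The SNC1 and ICS1 calls were lost with median-ratio scaling (adjusted p = 0.11 and 0.10), and that of ICS1 also without WT library 1. Under that scaling 2 genes of this list fell and 2 rose, EDS1 by 0.32 and WRKY46 by 0.39. Families drawn from the annotation after their values were seen went the same way. Of 91 tested NLR receptor genes, which sense pathogen effectors inside the cell, 30 fell and 0 rose. RPP4 was at 10.3, 10.6 and 14.1 TPM in WT and at 1.02, 2.49 and 4.74 TPM in prmt5 (-1.87 ± 0.26; adjusted p = 0.00028), and WRR4 fell by 0.87. RPP4 and SNC1 sit in 1 cluster of similar genes, so reads may be shared between them. Of 22 cysteine-rich receptor-like kinase genes 7 fell and 0 rose, with CRK29, CRK30 and CRK28 at -1.50, -1.49 and -1.4. Under median-ratio scaling 26 NLR and 7 kinase genes were lower and 0 higher in each family.

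All 5 tested plant defensin genes fell. PDF1.2c was at 5.03, 4.26 and 10.3 TPM in WT and at 0.89, 0 and 1.00 TPM in prmt5 (-2.19 ± 0.28), PDF1.5 at 18.5, 17.6 and 17.8 TPM against 4.46, 5.05 and 5.11 TPM (-1.69 ± 0.28), and PDF1.2B fell by 1.1. PDF1.3 was at 42.5, 45.1 and 60.9 TPM against 49.7, 9.05 and 8.36 TPM, so that prmt5 library 1 lay within WT, and the change was -2.36 without that library. Its call was lost without any 1 of the other 5 libraries (adjusted p up to 0.11). The PDF1.2 genes are near-identical copies, and their single values are uncertain. In WT library 3 the 3 PDF1.2 genes were at their highest, and without it the change in PDF1.2A was -2.97. In the jasmonate list, which holds 2 of these defensins, 3 of 24 genes rose (AOS by 0.88, MYC2 by 0.81 and JAZ12 by 0.26) and 4 fell, where 4.09% of all genes rose and 13.1% fell. With median-ratio scaling 4 were higher and 2 lower, and without WT library 3 0 were higher and 4 lower. AOS, a jasmonate synthesis enzyme, and MYC2, the main jasmonate transcription factor, lost their calls without WT library 3 (adjusted p = 0.06 and 0.12), and also without WT library 1 or either of prmt5 libraries 1 and 2. The JAZ12 call was lost without any of the 3 WT libraries or prmt5 library 1 (adjusted p up to 0.11). Of 8 camalexin and indole glucosinolate genes 0 were called, and of 18 aliphatic glucosinolate genes 1 fell (BCAT3, by 0.39, adjusted p = 0.092 with median-ratio scaling and up to 0.089 without any 1 of 5 libraries), against 3 higher and 0 lower with median-ratio scaling.

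Cell division genes showed small differences. Of 26 tested cell cycle genes 4 rose and 1 fell, where 4.09% of all genes rose and 13.1% fell. KNOLLE, the cytokinesis syntaxin, was at 66.1, 64.8 and 73.1 TPM in WT and at 84.2, 129 and 121 TPM in prmt5 (0.68 ± 0.14; adjusted p = 0.0047). The mitotic cyclins CYCB1;2 and CYCB1;1 rose by 0.61 and 0.59, and both calls were lost without prmt5 library 2 (adjusted p = 0.12 and 0.15) and without WT library 1, WT library 2 or prmt5 library 3, that of CYCB1;1 also without WT library 3. CYCD2;1, a G1 cyclin, fell by 0.59. In KNOLLE and both cyclins prmt5 library 1 was nearest to WT. Of 12 tested CDK inhibitors SMR7 rose by 0.69 and KRP6 fell by 0.88, and of 10 DNA replication genes 0 were called. Of 9 tested DNA damage genes 3 rose: NAC044, the repair gene GMI1, from 2.05 ± 0.33 to 4.92 ± 1.31 TPM (0.94 ± 0.16; adjusted p = 0.0016), and the ribonucleotide reductase subunit TSO2 (0.56), whose call was lost without any 1 of 4 libraries (adjusted p up to 0.077).

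Heat shock genes of unheated prmt5 seedlings were mostly not called. Of 29 tested heat shock proteins and factors 1 rose and 3 fell, where 4.09% of all genes rose and 13.1% fell (median -0.12, as over all genes). The counts were 3 and 2 with median-ratio scaling and 1 and 5 without WT library 3. HSP23.5, a mitochondrial small heat shock protein, was at 9.64, 7.31 and 3.1 TPM in WT and at 14.1, 11.7 and 12.1 TPM in prmt5 (0.93 ± 0.23), and at 0.53 without WT library 3. The repressor HSFB2A fell by 0.74, the small heat shock protein HSP26.5 by 0.83 and the disaggregase HSP101 by 0.42. The HSP26.5 call was lost without WT library 1, WT library 2 or prmt5 library 1 (adjusted p up to 0.12), and the HSP101 call with median-ratio scaling (adjusted p = 0.13) or without any 1 of 5 libraries. The master regulators HSFA1A, HSFA1B, HSFA1D and HSFA1E did not pass (-0.12 to 0.14). Of 20 genes of folding in the endoplasmic reticulum 3 rose and 0 fell. NAC103, a factor of the unfolded protein response, was at 0.27, 0.66 and 0.08 TPM in WT and at 3.37, 4.78 and 6.82 TPM in prmt5 (2.15 ± 0.18; adjusted p = 3.5e-06), and the chaperones SHD and BIP1 rose by 0.40 and 0.36. NAC103, which counts among the 3, passed the filter of 1 TPM only through prmt5, so its direction was set in advance.

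Growth and hormone lists held few calls. Of 21 tested genes of elongation and auxin response 3 rose and 3 fell, where 4.09% of all genes rose and 13.1% fell. Beside PIF4, the expansin EXPA8 rose from 17.4 ± 3.32 to 36.7 ± 8.63 TPM (1.03 ± 0.25) and EXPA11 by 0.76, and both calls were lost without prmt5 library 1 (adjusted p = 0.053 and 0.10), that of EXPA11 also without WT library 2, WT library 3 or prmt5 library 2. PIF3, a phytochrome partner, fell by 0.67. Of 9 cytokinin response genes 1 fell (ARR9, by 0.70), of 4 tested senescence and sugar starvation genes 1 rose (DIN1, 0.59), of 8 ribosome biogenesis genes 1 rose (NUC2, 0.48), and of 3 calcium-sensing genes 0 were called. The DIN1 and NUC2 calls were each lost when single libraries were left out (adjusted p up to 0.14 and 0.15).

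Among annotation families, pentatricopeptide repeat genes, which encode RNA-binding proteins of plastids and mitochondria, were chosen after their values were seen. Of 236 tested, 48 rose (20.3%) and 6 fell (2.54%), against 4.09% and 13.1% of all genes. The median was 0.18 against -0.12 over all genes, and under median-ratio scaling 94 rose and 5 fell. Among all genes without introns 10.5% rose and 4.52% fell, and the intron numbers of this family were not compared. At heat end 15.3% of the family were higher and 47% lower (all genes 18.8% and 49.7%), and at recovery 5.93% and 36% (all genes 25.9% and 34%). Of 10 DUF295 genes, a family also chosen after its values were seen, 5 rose and 0 fell, against 4.09% and 13.1% of all genes. AT5G53230 was at 0.06, 0 and 0.22 TPM in WT and at 2.39, 5.47 and 4.66 TPM in prmt5 (2.19 ± 0.19), and AT5G55270 rose by 2.14. AT5G53230, which counts among the 5, passed the filter only through prmt5, so its direction was set in advance. The share of 5 in 10 is to be read with this limit.

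The genotype difference at 22 °C was then read in the libraries of the other conditions. At heat end 68.5% of all tested genes passed, with 18.8% higher in prmt5 and 49.7% lower, and at recovery 59.9% passed, with 25.9% higher and 34% lower. The difference between genotypes at heat end differed from that at 22 °C in 51.4% of tested genes, and that at recovery in 46.1%, by the interaction terms of the same fit. Of the 810 genes higher at 22 °C, 335 (41.4%) were higher and 244 (30.1%) lower at heat end, and 317 (39.1%) were higher and 216 (26.7%) lower at recovery. Of the 2599 lower genes, 1760 (67.7%) were lower and 232 (8.93%) higher at heat end, and 1094 (42.1%) were lower and 542 (20.9%) higher at recovery. In all 3 conditions, 199 genes were higher (1% of those tested) and 893 lower (4.51%). This balance also depended on scaling: 633 were higher and 525 lower with median-ratio scaling, and 683 and 466 with quantile normalization. The other shares in this paragraph are on the TPM scale.

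Some of the genes farthest from WT differed in every condition. ASPGA1, MRD1, CIB1 and PRMT5 were lower in all 3 conditions, with ASPGA1 at -1.54 at heat end and -1.77 at recovery. ACC2 was higher in all 3 (0.72 at heat end and 0.71 at recovery). PIF4 was lower in prmt5 at heat end (-1.77), where WT reached 13.1 ± 3.69 TPM and prmt5 3.11 ± 0.88 TPM. The antenna gene LHCB1.2 was lower at recovery (-1.07). LHY, at 5.03 ± 0.17 TPM in WT at recovery, stood at 73.7 ± 9.11 TPM in prmt5 (3.62; adjusted p = 3.4e-10), and RVE8 was higher there too (1.18). GRP7 was lower in prmt5 at heat end (-0.80) and recovery (-0.45). AT14A went from 2.05 at 22 °C to -2.68 at heat end.

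**Figure D5:**
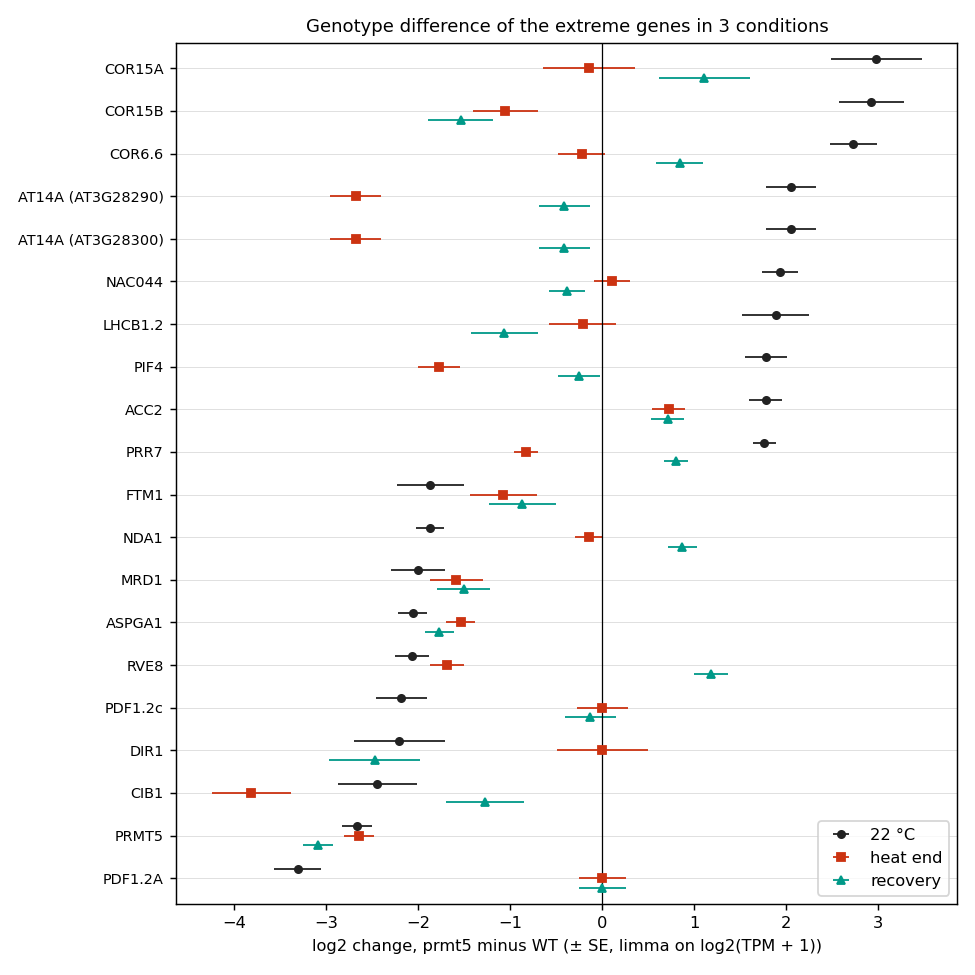
Log2 change, prmt5 minus WT, of the genes with the 10 highest and 10 lowest changes at 22 °C, in each condition, with the standard error of the limma fit (3 libraries per group). The genes were chosen for their difference at 22 °C; AT14A, PIF4 and PRR7 lie below 0 at heat end, and RVE8 and NDA1 lie above 0 at recovery.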

How the data were processed

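The deposited table holds TPM made by the authors for 18 libraries and 37916 genes; the submitters' processing notes name RSEM and the TAIR10 build, and the aligner and versions are not given in the sources used here. TPM keeps no depth, so no counting intervals were computed and no count model was used. Another 6 columns of the deposited table are the authors' group means and were not used, and 0 columns of values were unmatched. Symbols, gene classes, intron numbers and promoters came from RefSeq TAIR10.1 by gene identifier, matched for 37561 genes. The deposited gene lengths were used only to sort genes into 3 length classes.

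Log2(TPM + 1) of genes with a mean of at least 1 TPM at 22 °C was fitted with limma 3.58.1 in R 4.3.3 (lmFit and eBayes with trend) as 6 group means over all 18 libraries, with 12 residual degrees of freedom, since 3 libraries against 3 give few. Two-sided p-values were adjusted by Benjamini-Hochberg over all 19802 genes, with a threshold of 0.05. The pseudocount understates changes of low genes. A gene near 0 in WT or in prmt5 passes the filter only through the other genotype, so its direction is set in advance. Means carry the SD and log2 changes the SE of the fit. Genes were named by rule: PRMT5, FLC and GRP7, the 10 highest and 10 lowest changes among called nuclear protein-coding genes with a symbol, a mean of 5 TPM or more in one genotype and no overlap between genotypes, and up to 4 called members per list. Other list members are given with their values. The 41 lists (578 genes), the members and the rule were chosen with earlier results of these data known, and 5 annotation families, several settings for lists and introns, and genes without symbols, EDS1 and WRKY46 after values were seen. Motifs were searched on both strands. Python 3.11.15 with pandas 2.3.3 and matplotlib 3.10.9 made tables and plots. The fit was tested on simulated data.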

Additional observations from a re-analysis of the deposited data

Results flagged for a closer look

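The genes with the 10 highest and 10 lowest changes at 22 °C were chosen for that difference, so a smaller difference elsewhere is partly set by the choice. For each, the genotype difference at heat end or recovery minus that at 22 °C was tested with limma over all genes tested, of which 51.4% passed for heat end and 46.1% for recovery at an adjusted p of 0.05. Genes that passed are given here on the log2 scale.

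On the higher side, the difference relative to 22 °C was -3.12 at heat end and -1.87 at recovery for COR15A, -3.98 and -4.46 for COR15B, and -2.96 and -1.89 for COR6.6. It was -4.73 and -2.46 for both copies of AT14A (AT3G28300 and AT3G28290), whose values are identical. For NAC044 it was -1.83 and -2.32, where levels were over 30 TPM in both genotypes in the heat and recovery libraries. LHCB1.2 gave -2.10 and -2.95, PIF4 -3.55 and -2.04, ACC2 -1.05 and -1.07, and PRR7 -2.60 and -0.96.

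On the lower side, it was 3.31 at heat end and 3.31 at recovery for PDF1.2A, 2.19 and 2.05 for PDF1.2c, and 2.21 at heat end for DIR1. PDF1.2A was listed at 0 in every library of both genotypes at heat end and recovery, as were PDF1.2c and DIR1 at heat end, so these values restate the difference at 22 °C. RVE8 gave 3.25 at recovery, and NDA1 1.73 at heat end and 2.75 at recovery.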

How the results depend on the processing

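Settings were changed one at a time. Genes higher and lower at 22 °C, and higher and lower in all 3 conditions, numbered 810, 2599, 199 and 893. They numbered 2042, 1680, 633 and 525 with median-ratio scaling, and 2090 higher, 1764 lower, 683 and 466 with quantile normalization. With only the 6 libraries in the fit 386 were higher and 1112 lower. Leaving out each library in turn gave 430 to 1169 higher, 1338 to 3591 lower, 131 to 246 higher in all 3 conditions and 506 to 1241 lower in all 3. Other pseudocounts (0.1 or 5), a filter at 5 TPM, no filter, organelle genes left out and robust eBayes each left these 4 counts within 1.5 times. The labels do not say whether replicate numbers pair the samples, and the main fit did not pair them. Same-numbered libraries at 22 °C deviated from their group means with correlations of 0.01, -0.14 and -0.09, and other-numbered ones with -0.15 to 0.22. With 3 libraries per group these values cannot decide whether samples were paired. A replicate block gave 735 higher, 2313 lower, 185 and 809. The PRMT5 difference was -23.5 to -22.4 TPM over the libraries left out. Of the 159 genes named with values, 139 were called, and with 1 library left out 49 of these lost the call and 0 changed sign. With only the 6 libraries in the fit 49 lost the call, with median-ratio scaling 12 did while TOC1, EDS1 and WRKY46 gained one, and with a replicate block 6 did. The sign changed for 10 genes that were not called. Their log2 changes ranged, over the libraries left out, from -0.64 to 0.077 for KIN1, -0.87 to 0.35 for FRO2, -0.93 to 0.021 for FIT, -0.47 to 1.5 for IRT1, -0.18 to 0.48 for COR47, -0.21 to 0.27 for ERD10, -0.012 to 0.29 for ABI5, -0.30 to 0.23 for HSFA1A and -0.13 to 0.023 for HSFA1D. With median-ratio scaling FRO2 was at 0.0046, HSFA1D at 0.087 and HSFA1B at 0.019. With quantile normalization FRO2 was at 0.063, HSFA1D at 0.12, HSFA1A at 0.064 and HSFA1B at 0.083, and with a pseudocount of 0.1 FRO2 was at 0.012. The causes were not tested. Depth is unknown, so low genes have an unknown counting error.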
